A study of Mus musculus with 12 samples.

Results

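The hepatocyte identity transcription factors examined here are Hnf4a, Cebpa, Cebpb, Foxa1, Foxa2, Foxa3, Onecut1, Prox1 and Nr5a2. They were taken by gene symbol from the deposited count table, in which all 9 were found among 46095 genes, and all 9 were among the 14666 genes kept by the filter on low counts. The libraries were made from liver tumours (hepatocellular carcinoma, HCC) that mice developed after the carcinogen diethylnitrosamine. There were 7 tumours of Pck1-null mice (KO) and 5 of wild-type mice (WT), so every library of either genotype shares the carcinogen, the organ and the disease. The labels give no strain, sex, age, time after the carcinogen or treatment beyond it, do not say how Pck1 was deleted, and do not state whether each tumour came from a separate mouse. Pck1 encodes the cytosolic phosphoenolpyruvate carboxykinase, an enzyme of gluconeogenesis in hepatocytes.

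These factors form an interlocking network that keeps a hepatocyte a hepatocyte. HNF4A, a nuclear receptor, and C/EBP alpha, a basic leucine zipper factor, switch on genes of metabolism and of secreted plasma proteins in the mature cell, while C/EBP beta is induced in inflammation and regeneration. The FOXA proteins open chromatin at liver enhancers as pioneer factors. ONECUT1 (also called HNF6), PROX1 and NR5A2 (also called LRH-1) act with them in liver development and in the control of bile acid, lipid and glucose genes. In human and mouse liver cancer, loss of HNF4A or C/EBP alpha is known to accompany loss of hepatocyte functions.

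None of the 9 factors passed edgeR's quasi-likelihood test between KO and WT tumours after adjustment, beside 0.0% of all genes tested. None passed in DESeq2, beside 3.33% of all genes. Limma voom with sample weights called Cebpa and Foxa1, beside 14.6% of all genes. Cebpa was 1.64-fold lower in the KO fit and Foxa1 was 1.45-fold higher, and these were the 2 members with the smallest p-values. In edgeR's fit, Hnf4a, Cebpb, Foxa2, Foxa3, Prox1 and Nr5a2 had log2 differences between -0.18 and 0.25, each within 1 standard error of 0. Limma voom with sample weights gave Hnf4a -0.31 ± 0.15 (adjusted p = 0.157) and Foxa2 -0.49 ± 0.23 (adjusted p = 0.150). The others of this group stayed within 1 standard error of 0 there. Onecut1 varied most between tumours, with a count of 0 in KO replicate 2 and 15.2 CPM (counts scaled to library size) in KO replicate 5.

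Library totals ran from 17462102 to 46747125 counts. They fell into 7 shallower libraries (KO replicates 1, 2, 3 and 7, WT replicates 1, 3 and 4, each with no more than 23663506 counts) and 5 deeper ones (each with at least 43071365). All levels below are CPM scaled by the trimmed mean of M values (TMM), and log2 values are log2 CPM with a prior count of 2. Pck1 lay between 111 and 1167 CPM in KO tumours and between 1063 and 5822 CPM in WT tumours, with no library of KO at 0. The ranges of Pck1 overlapped, and its fitted log2 fold change of -3.28 ± 0.67 (SE) had an adjusted p of 0.170 by edgeR's quasi-likelihood test, 0.000123 by DESeq2 and 0.0103 by limma voom with sample weights. Xist was at 91.0 to 167 CPM in 5 KO tumours (replicates 1, 2, 3, 5 and 6) and 1 WT tumour (replicate 4), and at most 0.703 CPM in the others, so the X-inactivation transcript was unevenly spread over the genotypes. Sex is not labelled. A difference between the genotypes thus cannot be fully told apart from one between tumours with high and low Xist, or between the sexes. Hepatocyte products were abundant in every library: Alb, which encodes albumin, was at 31860 to 112979 CPM in KO tumours and at 31612 to 140779 CPM in WT tumours. In bulk tumour RNA, fewer cells of a type and less RNA per cell cannot be told apart.

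**Figure D1:**
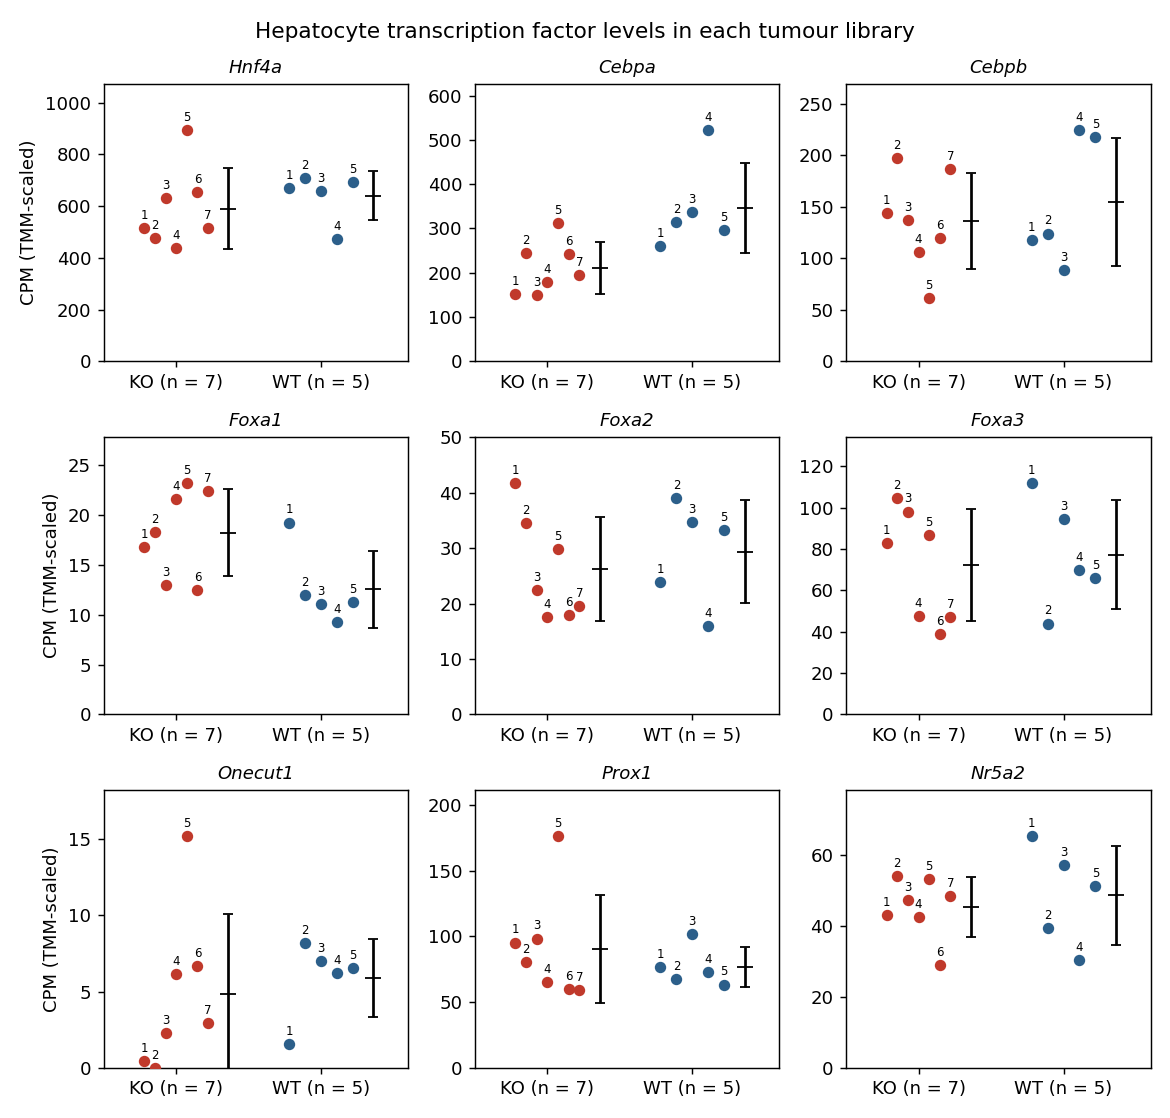
Level of each factor (vertical axis, TMM-scaled CPM) in each library, numbered by replicate, in KO (red, n = 7) and WT tumours (blue, n = 5). Bars are the mean ± SD, and the lower end of the Onecut1 KO bar is beyond the axis at 0. Cebpa is the member with most KO tumours (6 of 7) below every WT tumour.

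Promoter sequence is shown for 4 members, those of Hnf4a, Foxa1 and Foxa2 for their matches to motifs of liver factors, to place the factors beside the network that they are known to form. The windows come from RefSeq (GRCm38.p6, the assembly also called mm10) and reach from 250 bases before the annotated start to 50 after it, and all 9 members matched, with 14 windows in all. The 6 motifs below were searched for on both strands: HNF1 (GTTAAT), ONECUT (ATCAAT), FOXA (TGTTTAC), C/EBP (TTGCNNAA), HNF4 (CAAAGTCCA) and NR5A (CAAGGNCA). Among all 32851 RefSeq promoter windows of this length, a match was present in 7.1% for HNF1, 7.54% for ONECUT, 3.65% for FOXA, 10.8% for C/EBP, 0.475% for HNF4 and 6.71% for NR5A. The letters of these motifs are short, so a match describes the window and is not a bound site. Capitals mark the matches, and those in the second Hnf4a window, the Foxa1 window and the first Foxa2 window are the letters read on the other strand. Cebpa is shown as the member with the smallest p.
Hnf4a, first window, chr2:163506607-163506906 (+): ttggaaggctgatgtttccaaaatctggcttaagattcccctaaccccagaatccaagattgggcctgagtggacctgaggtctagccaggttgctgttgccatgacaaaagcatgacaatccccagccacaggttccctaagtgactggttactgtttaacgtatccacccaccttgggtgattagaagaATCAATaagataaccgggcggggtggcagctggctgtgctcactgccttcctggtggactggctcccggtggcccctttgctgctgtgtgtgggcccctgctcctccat
Hnf4a, second window, chr2:163546905-163547204 (+): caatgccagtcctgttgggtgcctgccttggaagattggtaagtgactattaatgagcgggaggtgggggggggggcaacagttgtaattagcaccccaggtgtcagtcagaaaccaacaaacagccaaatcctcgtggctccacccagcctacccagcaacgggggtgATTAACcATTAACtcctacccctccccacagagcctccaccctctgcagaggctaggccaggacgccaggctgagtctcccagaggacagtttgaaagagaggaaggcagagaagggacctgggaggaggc
Foxa1, chr12:57546062-57546361 (-): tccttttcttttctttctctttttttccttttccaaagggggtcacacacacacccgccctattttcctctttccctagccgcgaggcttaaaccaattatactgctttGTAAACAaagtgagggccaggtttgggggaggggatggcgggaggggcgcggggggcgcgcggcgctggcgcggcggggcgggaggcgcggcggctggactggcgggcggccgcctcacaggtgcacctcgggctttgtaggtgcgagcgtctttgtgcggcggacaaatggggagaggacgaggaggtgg
Foxa2, first window, chr2:148046920-148047219 (-): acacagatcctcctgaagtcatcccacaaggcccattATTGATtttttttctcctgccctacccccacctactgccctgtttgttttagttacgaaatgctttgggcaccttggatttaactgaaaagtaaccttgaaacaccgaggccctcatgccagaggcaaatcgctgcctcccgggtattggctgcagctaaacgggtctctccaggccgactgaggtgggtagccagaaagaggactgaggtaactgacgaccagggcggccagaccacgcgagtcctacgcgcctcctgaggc
Cebpa, chr7:35119043-35119342 (+): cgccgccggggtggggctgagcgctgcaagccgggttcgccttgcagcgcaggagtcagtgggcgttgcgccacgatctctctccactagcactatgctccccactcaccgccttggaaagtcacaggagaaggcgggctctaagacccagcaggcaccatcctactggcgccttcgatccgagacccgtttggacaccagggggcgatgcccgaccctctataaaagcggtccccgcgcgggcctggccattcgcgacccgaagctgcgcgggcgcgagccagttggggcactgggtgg
The first Hnf4a window held the ONECUT letters at bases -59 to -54 from the start, and the second held the HNF1 letters 2 times, at -81 to -76 and at -74 to -69. The Foxa1 window held the FOXA letters at -141 to -135, and the first Foxa2 window held the ONECUT letters at -213 to -208. The third Foxa2 window and the first Nr5a2 window held the HNF1 letters, and the second Nr5a2 window held the C/EBP letters. No match to any of the motifs lay in the windows of Cebpa, Cebpb, Foxa3, Onecut1 or Prox1, nor in the second Foxa2 window.

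Hnf4a (chromosome 2, 163506808 to 163572910, plus strand of GRCm38 in GENCODE M21, as are the positions that follow) encodes the nuclear receptor at the centre of the network. It was at 438 CPM in the lowest KO tumour, 516 in the median and 894 in the highest, and at 671, 707, 660, 472 and 694 CPM in WT replicates 1 to 5. All but 1 of the 7 KO tumours were under the WT median, but KO replicate 5 was the highest of the 12 and the groups overlapped. Hnf4a averaged 589 ± 156 CPM over the 7 KO tumours and 641 ± 96.2 CPM over the 5 WT tumours (± SD). The log2 fold change was -0.12 ± 0.20 with an adjusted p of 0.805 by edgeR's quasi-likelihood test. The antisense gene Hnf4aos, which lies on the opposite strand and shares no exon base with Hnf4a in GENCODE M21, had 508 counts in all beside 231763 for Hnf4a.

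Cebpa (chromosome 7, 35119293 to 35121928, plus strand, a gene of 1 exon of 2636 bases) encodes C/EBP alpha, which drives hepatocyte metabolic genes and restrains proliferation. It was at 152, 245, 149, 179, 313, 243 and 194 CPM in KO replicates 1 to 7, and at 259, 315, 337, 523 and 297 CPM in WT replicates 1 to 5. All 7 KO tumours were below the WT median and 6 of 7 were below every WT tumour. KO replicate 5 alone lay inside the WT range, and WT replicate 4 stood well above the other WT tumours. Cebpa averaged 211 ± 59.3 CPM over the 7 KO tumours and 346 ± 103 CPM over the 5 WT tumours (± SD).
Its log2 fold change was -0.72 ± 0.23, with an unadjusted p of 0.00823 and an adjusted p of 0.222 by edgeR's quasi-likelihood test. An exact two-sided permutation test of mean log2 CPM gave a difference of -0.72 and p = 0.00758, where the design allows no p under 0.00126, and 0.244 after adjustment over all genes tested. Taken by depth, it was -1.02 among the shallower libraries and -0.33 among the deeper ones. With the 2 Xist classes as a covariate it was -0.91 ± 0.23 (adjusted p = 0.223 by edgeR's quasi-likelihood test). Of the alternatives tried, only limma voom with sample weights took it past the threshold, at -0.73 with an adjusted p of 0.0201.

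Granulocyte precursors also express Cebpa, and markers of these cells differed between the tumours. The summed level of the 10 neutrophil and precursor genes was 1693, 261 and 410 CPM in KO replicates 3, 4 and 6, while it was 33.5 to 54.4 CPM in the other 4 KO tumours and 38.1 to 86.8 CPM in WT tumours. Of these 10 genes, 8 were higher in KO at an unadjusted p under 0.05, none after adjustment by edgeR's quasi-likelihood test, while DESeq2 called 8 (beside 3.33% of all genes) and limma voom with sample weights 0 (beside 14.6%). Mpo and Elane, which mark granule formation, were detected in every library. Cebpa was at 149, 179 and 243 CPM in the 3 KO tumours with the high sums, and between 152 and 313 CPM in the other 4. Without those 3 tumours its log2 fold change was -0.64, with an unadjusted p of 0.0463 and an adjusted p of 0.337 by edgeR's quasi-likelihood test.

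Cebpb (chromosome 2, 167688915 to 167690418, plus strand, 1 exon of 1504 bases) encodes C/EBP beta, the acute-phase and regeneration member of the pair. It was at 61.8 CPM in the lowest KO tumour, 138 in the median and 198 in the highest, and at 118, 124, 88.7, 225 and 218 CPM in WT replicates 1 to 5. The ranges overlapped, with KO replicate 5 the lowest and WT replicate 4 the highest of the 12. The log2 fold change was -0.18 ± 0.30 (adjusted p = 0.803, edgeR's quasi-likelihood test), and by depth it was 0.21 (shallower) and -0.84 (deeper). Tmem189, on the opposite strand, shares 312 exon bases with Cebpb in GENCODE M21. It had 7878 counts in all, against 50823 for Cebpb, and whether reads were counted by strand is not given in the sources used here. Other transcripts that share exon bases with members in GENCODE M21 are Gm45091 (51 bases of Cebpa, opposite strand), Gm20649 (2171 bases of Onecut1, same strand) and Prox1os (133 bases of Prox1, opposite strand), none of which has a row of its own in the table used here.

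The balance of the 2 C/EBP genes was set out within each tumour as the log2 of Cebpb over Cebpa. It was -0.0730, -0.31, -0.12, -0.76, -2.34, -1.02 and -0.0538 in KO replicates 1 to 7, and -1.14, -1.34, -1.92, -1.22 and -0.44 in WT replicates 1 to 5. Of the 7 KO tumours, 6 were above the WT median, with KO replicate 5 the lowest of all 12. The mean was -0.67 ± 0.82 over the 7 KO tumours and -1.21 ± 0.53 over the 5 WT tumours (± SD), a difference of 0.55 with p = 0.226 by an exact two-sided permutation test. Leaving out 1 library at a time gave differences from 0.37 to 0.83 and exact permutation p-values from 0.0173 to 0.424. The largest difference and smallest p were those without KO replicate 5. By depth it was 1.29 among the shallower libraries (exact permutation p = 0.0286, the smallest that 4 against 3 can give) and -0.48 among the deeper ones (exact permutation p = 0.7).

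**Figure D2:**
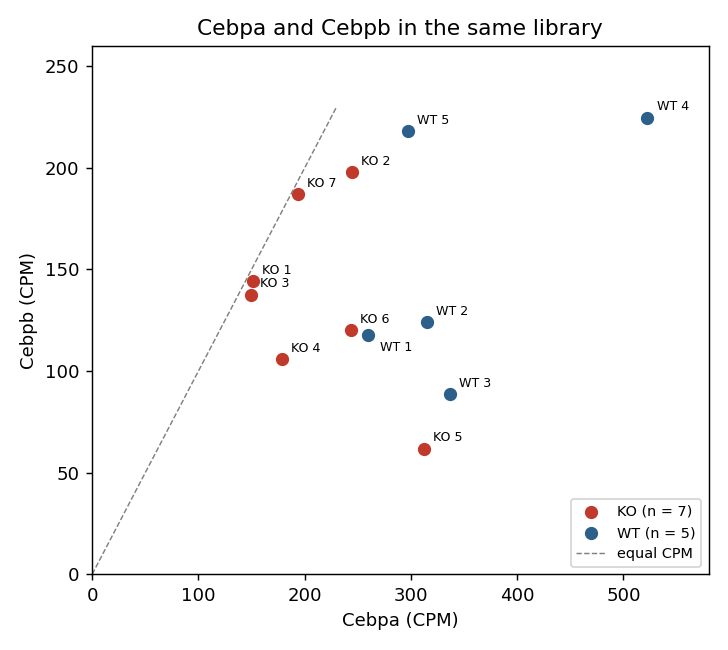
Cebpb (vertical axis, CPM) against Cebpa (horizontal axis, CPM) in each library of KO (red, n = 7) and WT tumours (blue, n = 5); the dashed line marks equal CPM. KO replicates 1, 3 and 7 lie close to the line, and KO replicate 5 lies farthest below it among the KO tumours, at 313 CPM of Cebpa and 61.8 CPM of Cebpb.

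The 3 FOXA genes, whose proteins share a forkhead DNA-binding domain, had fitted values of both signs. Foxa1 (chromosome 12, 57540628 to 57546916, minus strand) was at 16.8, 18.3, 13.0, 21.6, 23.2, 12.5 and 22.4 CPM in KO replicates 1 to 7, and at 19.2, 11.95, 11.1, 9.25 and 11.2 CPM in WT replicates 1 to 5. All 7 KO tumours were above the WT median, 3 of 7 (replicates 4, 5 and 7) were above every WT tumour, and WT replicate 1 lay inside the KO range. Foxa1 averaged 18.2 ± 4.41 CPM over the 7 KO tumours and 12.6 ± 3.87 CPM over the 5 WT tumours (± SD). The log2 fold change was 0.54 ± 0.22, with an unadjusted p of 0.0286 and an adjusted p of 0.293 by edgeR's quasi-likelihood test. The exact permutation p was 0.0354, and 0.325 after adjustment over all genes tested. By depth the value was 0.41 (shallower) and 0.71 (deeper), and limma voom with sample weights gave 0.65 with an adjusted p of 0.0253. With the 2 Xist classes as a covariate the Foxa1 value was 0.77 ± 0.23 (adjusted p = 0.255 by edgeR's quasi-likelihood test). Without a covariate, its unadjusted p in the same edgeR test depended on single libraries. It exceeded 0.05 when any 1 of KO replicates 4, 5 and 7 or WT replicates 2, 3, 4 and 5 was left out. The highest was 0.0748, without WT replicate 4.

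Foxa2 (chromosome 2, 148042877 to 148046969, minus strand), which is also known for its part in bile duct and glucose homeostasis genes, was at 17.5 CPM in the lowest KO tumour, 22.4 in the median and 41.8 in the highest. WT replicates 1 to 5 were at 23.9, 39.1, 34.7, 16.0 and 33.3 CPM. The ranges nearly coincided, and the log2 fold change was -0.17 ± 0.27 (adjusted p = 0.799, edgeR's quasi-likelihood test). Foxa3 (chromosome 7, 19013284 to 19023538, minus strand), a FOXA gene of liver and gut, was at 39.0, 82.9 and 105 CPM in the lowest, median and highest KO tumour, and at 112, 44.0, 94.6, 69.8 and 66.0 CPM in WT replicates 1 to 5. Its groups overlapped almost entirely too, with a log2 fold change of -0.0950 ± 0.30 (adjusted p = 0.905, edgeR's quasi-likelihood test). Split by depth, these 2 genes had values of either sign in shallower and deeper libraries, at 0.25 and -0.75 for Foxa2 and at -0.15 and 0.0629 for Foxa3.

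Onecut1 (chromosome 9, 74861921 to 74891781, plus strand) encodes a CUT homeodomain factor of hepatocyte and bile duct development. Its counts were 10, 0, 47, 346, 686, 310 and 67 in KO replicates 1 to 7, and 29, 360, 100, 130 and 261 in WT replicates 1 to 5. In CPM these were 0.418, 0, 2.26, 6.18, 15.2, 6.68 and 2.94 in KO and 1.55, 8.21, 7.03, 6.20 and 6.56 in WT. KO replicates 1 and 2 lay below every WT tumour and KO replicate 5 above every one, so the KO tumours spread beyond the WT range on both sides. The 0 counts of KO replicate 2 allow a level of up to 0.161 CPM (3 counts, counting error only).
The fitted log2 fold change was -0.29 ± 0.90 (adjusted p = 0.905, edgeR's quasi-likelihood test), while the difference of mean log2 CPM was -1.37 with an exact permutation p of 0.341. Its biological coefficient of variation was 1.05, higher than in 96.1% of the genes tested, and the other 8 members lay between 0.269 (Nr5a2) and 0.385 (Cebpb). The 5 libraries under 3 CPM (KO replicates 1, 2, 3 and 7 and WT replicate 1) were all shallower ones, and the difference was -1.80 among shallower libraries and 0.33 among deeper ones. With the 2 depth classes as a covariate it was -0.97.

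KO replicates 1 and 2, lowest in Onecut1, also had the least Arg1, which encodes the urea cycle enzyme arginase, at 15.5 and 10.7 CPM, against 299 to 2780 CPM in the other KO tumours and 771 to 4042 CPM in WT tumours. Tbx3, a T-box repressor expressed in pericentral hepatocytes, was at 171, 99.5 and 136 CPM in KO replicates 1, 2 and 3, at 0.310 in KO replicate 5, at 7.82 to 39.8 CPM in KO replicates 4, 6 and 7, and at 5.83 to 33.9 CPM in WT tumours. The tumour with the most Onecut1 thus had the least Tbx3. Arg1 was singled out after its values were seen. Bile duct cells also express Onecut1. The summed level of 10 cholangiocyte genes was 4391 CPM in KO replicate 5, of which Spp1 made 4254, and 36.6 to 790 CPM in the other KO tumours, against 168 to 1005 CPM in WT tumours. By the mean log2 CPM of these genes KO replicate 4 was the highest library, at 4.33, and KO replicate 5 was at 2.44. The sum was lowest in KO replicate 2, which was also lowest in Onecut1, and its part in the Onecut1 values was not tested.

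Prox1 (chromosome 1, 190118035 to 190170714, minus strand) encodes a homeobox factor that hepatocytes share with lymphatic endothelium. It was at 58.9 CPM in the lowest KO tumour, 80.7 in the median and 176 in the highest, and at 76.6, 67.3, 102, 72.5 and 63.3 CPM in WT replicates 1 to 5. KO replicate 5 stood apart and the other KO tumours spanned about the WT range. The log2 fold change was 0.25 ± 0.27 (adjusted p = 0.678, edgeR's quasi-likelihood test), and without KO replicate 5 it was 0.000339. Of the lymphatic markers, Pdpn and Ccl21a were under 1 CPM in every library. Flt4, which sinusoidal endothelium shares, was at 13.3 to 101 CPM in KO tumours and at 52.6 to 121 CPM in WT tumours. Reln, in the same list, was at 11.1 to 210 CPM in KO tumours and at 23.7 to 169 CPM in WT tumours. Its log2 fold change in edgeR was 0.99 ± 0.70, the 1 positive value of the list beside 7 negative ones. The 10 endothelial and lymphatic genes together were at 159 to 643 CPM in KO tumours and at 447 to 577 CPM in WT tumours. Of these 10, 8 were tested, and 4 were lower at an unadjusted p under 0.05 in edgeR, beside 7.44% of all genes, with 0 past the adjusted threshold. DESeq2 called 1 lower and limma voom with sample weights 4. Their part in the Prox1 values was not tested.

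Nr5a2 (chromosome 1, 136842571 to 136960448, minus strand) encodes the nuclear receptor LRH-1, a regulator of bile acid and cholesterol genes. It was at 29.1 CPM in the lowest KO tumour, 47.4 in the median and 54.0 in the highest, and at 65.2, 39.3, 57.1, 30.3 and 51.2 CPM in WT replicates 1 to 5. The ranges overlapped, with KO replicate 6 the lowest and WT replicate 1 the highest. The log2 fold change was -0.10 ± 0.20 (adjusted p = 0.838, edgeR's quasi-likelihood test). Its biological coefficient of variation, 0.269, was the lowest of the 9, while Hnf4a had the lower SD of log2 CPM (0.31, against 0.36 for Nr5a2).

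**Figure D3:**
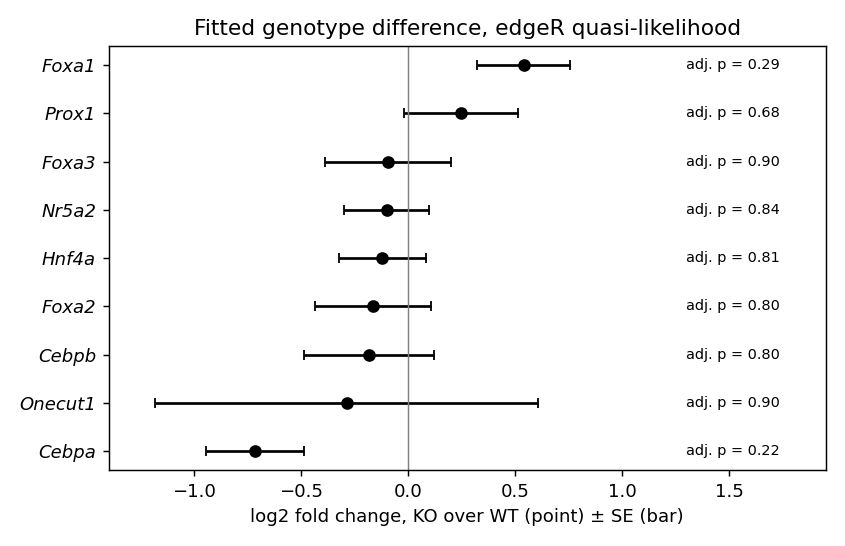
Fitted log2 fold change of each factor, KO over WT (horizontal axis), with its standard error, derived from the F statistic, as the bar. The adjusted p of edgeR's quasi-likelihood test is at the right. The values run from -0.72 for Cebpa to 0.54 for Foxa1, and no adjusted p is under 0.2.

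After adjustment, 0 of the 9 members passed in edgeR's quasi-likelihood test, where 0.0% of all genes tested passed. At an unadjusted p under 0.05 there were 2 members, Foxa1 higher and Cebpa lower, or 2 of 9 beside a background of 14.7% (7.25% higher and 7.44% lower). DESeq2 called 0 members at an adjusted p under 0.05, beside a background of 3.33%, and gave Cebpa an adjusted p of 0.0681. Limma voom with sample weights called 2 members, Cebpa and Foxa1, beside a background of 14.6%. The members' median log2 fold change was -0.12, with 2 positive and 7 negative, and the median of all genes tested was 0.0336. For no member did the KO and WT tumours fail to overlap, which 1.21% of all genes did.

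Per kilobase of merged exon, Hnf4a had the highest level of the 9, with 127 ± 27.3 CPM per kb (SD, n = 12). Cebpa followed at 101 ± 39.1 and Cebpb at 95.7 ± 34.6 CPM per kb. Hnf4a exceeded Cebpa in 11 of 12 libraries, though the mean log2 gap of 0.38 was smaller than its SD of 0.54. Cebpa exceeded Cebpb in 6 of 12, so this pair had no fixed order. Foxa3 was at 36.5 ± 12.6 CPM per kb and Foxa2 at 11.6 ± 3.82, with Foxa3 above Foxa2 in 12 of 12. Prox1 at 10.1 ± 3.88 and Nr5a2 at 7.92 ± 1.80 CPM per kb came next, and neither step from Foxa2 to Prox1 (8 of 12 libraries) nor from Prox1 to Nr5a2 (9 of 12) was larger than the spread. Foxa1 was at 4.77 ± 1.49 and Onecut1 at 1.28 ± 1.02 CPM per kb, with Nr5a2 above Foxa1 and Foxa1 above Onecut1 in 12 of 12 libraries. Among the FOXA genes the level order was thus Foxa3, Foxa2, Foxa1 in these tumours of both genotypes.

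**Figure D4:**
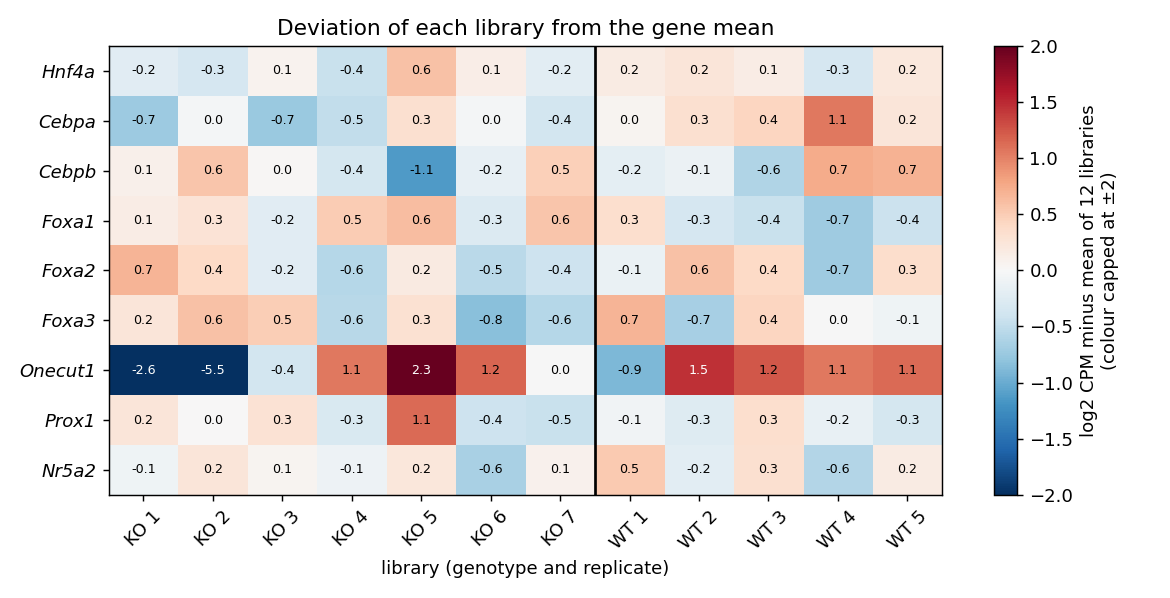
Deviation of each factor in each library from that factor's mean over the 12 libraries, in log2 CPM, with KO libraries left of the line and WT libraries right of it; colours are capped at 2 in either direction. KO replicate 5 is the highest library for 4 factors, and Onecut1 spans the widest range.

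Several extremes fell in the same tumour. KO replicate 5 had the highest level of Hnf4a, Foxa1, Onecut1 and Prox1 and the lowest of Cebpb. WT replicate 4, the WT tumour with high Xist, had the highest Cebpa and Cebpb and the lowest Foxa1 and Foxa2. WT replicate 1 was highest in Foxa3 and Nr5a2, for both of which KO replicate 6 was lowest. Between the highest and the lowest library the ratio ran from 2.04-fold for Hnf4a to 3.64-fold for Cebpb, Onecut1 left aside.

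Over the 12 libraries the 36 pairs of members gave 20 positive and 16 negative correlations of log2 CPM. Of these, 3 had a Pearson permutation p under 0.05 and 0 after adjustment over the 36 pairs, and Spearman gave 4 and 0. Foxa3 and Nr5a2 had the largest r, 0.67 (permutation p = 0.0162, adjusted 0.292) with a rho of 0.76 (permutation p = 0.00533, adjusted 0.150). Without the 2 libraries farthest in Foxa3, KO replicate 6 and WT replicate 2, r was 0.48, and by depth it was 0.49 (shallower, n = 7) and 0.89 (deeper, n = 5). Cebpb and Prox1 had r = -0.65 (permutation p = 0.0215, adjusted 0.292) and rho = -0.40 (permutation p = 0.199, adjusted 0.544). Without the 2 libraries farthest in Cebpb, KO replicate 5 and WT replicate 4, r was -0.32. By depth it was -0.64 (shallower) and -0.79 (deeper). Foxa3 and Prox1 had r = 0.62 (permutation p = 0.0243, adjusted 0.292), rho = 0.73 (permutation p = 0.00834, adjusted 0.150) and r = 0.54 without KO replicate 6 and WT replicate 2. Hnf4a and Onecut1 were at r = 0.50 (permutation p = 0.0967, adjusted 0.504).

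**Figure D5:**
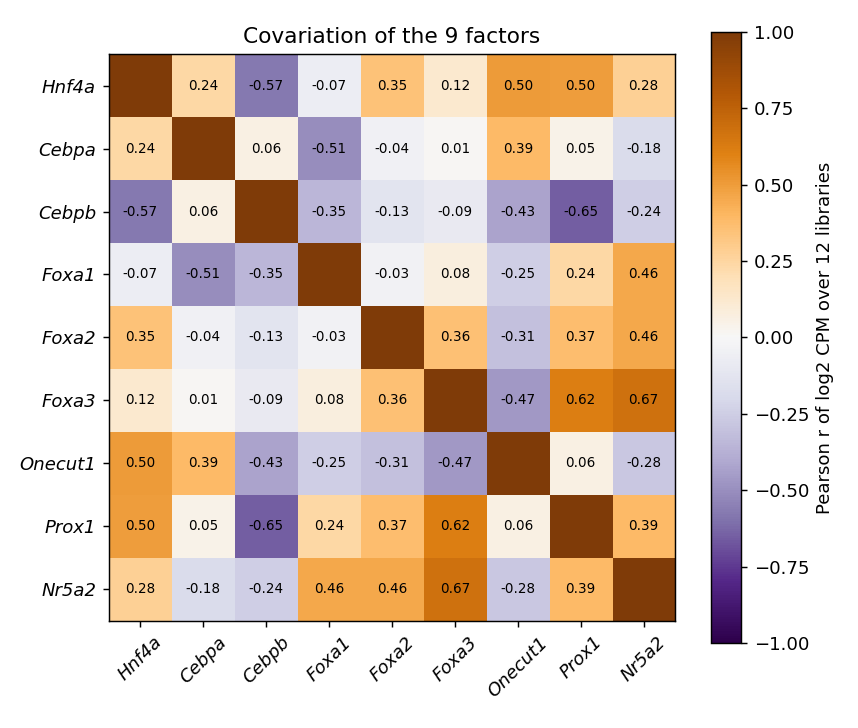
Pearson r of log2 CPM between each pair of factors over the 12 libraries, printed in each square; orange is positive and purple negative. The largest positive value is 0.67 for Foxa3 with Nr5a2 and the largest negative one -0.65 for Cebpb with Prox1.

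The genes whose levels followed each member most closely over the 12 libraries were named by the highest Pearson r of log2 CPM among all genes tested, as a description. The highest r among 14666 genes over 12 libraries is high by selection, and chance was not tested. Cebpa was followed by Dio1, the thyroid hormone deiodinase, at r = 0.91 and by Aqp8, a water channel, at 0.89. Centred within genotype, r was 0.80 for Dio1 and 0.79 for Aqp8. Foxa1 was followed by Phgdh, the first enzyme of serine synthesis, at r = 0.95, and by Copb2 and Sec13, coat proteins of vesicles, at 0.94 and 0.92. Centred within genotype, each of these was at 0.91. Phgdh reached 176 CPM in its highest library and had a median of 14.2 CPM over the 12. Foxa3 was followed by Sec23b at 0.93, Afm at 0.91 and Tmem41b at 0.90. Nr5a2 was followed by Srp72, a signal recognition particle subunit, at 0.94 and by Alb at 0.90. For Hnf4a the closest were Adat2, Zfp870 and Zfp799 (0.90, 0.89 and 0.89), for Cebpb Aldoa (0.88), for Foxa2 Ints4 (0.92), for Onecut1 Gm34235, Ctdspl and Epdr1 (0.96, 0.94 and 0.94), and for Prox1 Cbarp and Sp1 (0.90 and 0.89). Gm34235 was at most at 1.88 CPM, and the rho of Epdr1 with Onecut1 was 0.71.

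The other regulators of the hepatocyte and the genes known as targets of these factors were listed from general knowledge, and many are in more than 1 list. Of 28 further hepatocyte regulators, 0 passed edgeR's adjusted threshold in either direction and 0 at an unadjusted p under 0.05, with 9 positive and 19 negative log2 fold changes and a median of -0.13. Nr1i2, the xenobiotic receptor PXR, had a log2 fold change of -0.37 ± 0.18, and Foxo1, a target of insulin signalling, -0.34 ± 0.16. Tbx3 had 2.18 ± 1.02. DESeq2 called 0 of these 28, and limma voom with sample weights 3 lower.

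Of 19 genes known as HNF4A targets, 0 passed edgeR's adjusted threshold and 5 were lower and 0 higher at an unadjusted p under 0.05, with 16 negative values and a median log2 fold change of -0.30. DESeq2 called 1 lower (F9) and limma voom with sample weights 4. F9, coagulation factor IX, was at 90.5 to 128 CPM in KO tumours and at 128 to 168 CPM in WT tumours (log2 fold change -0.44 ± 0.12, SE, as are the errors of fold changes that follow). Apoc3, an apolipoprotein of triglyceride-rich particles, was at 102 to 1076 CPM in KO tumours and at 1174 to 2642 CPM in WT tumours (-1.12 ± 0.43). Neither F9 nor Apoc3 overlapped between the genotypes, as was so for 1.21% of all genes. For F9 the groups nearly touched, at 128.2 CPM in the highest KO tumour and 128.3 CPM in the lowest WT tumour. Otc, of the urea cycle, was at 30.8 to 249 CPM in KO tumours and at 150 to 309 CPM in WT tumours (-1.08 ± 0.40). Hnf4a itself was within 1 SE of 0 in edgeR in the same tumours, at -0.12 ± 0.20. Limma voom with sample weights gave it -0.31 ± 0.15, with an adjusted p of 0.157.

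Of 16 C/EBP targets, 0 passed edgeR's adjusted threshold and 2 were lower and 0 higher at an unadjusted p under 0.05, with 11 negative values and a median log2 fold change of -0.40. DESeq2 called 2 lower (Pck1 and Cyp2f2) and limma voom with sample weights 4. Apart from Pck1 the lower one was Cyp2f2, a periportal cytochrome P450, at 0.837 to 254 CPM in KO tumours and at 79.3 to 1441 CPM in WT tumours (-3.79 ± 1.22). G6pc, the glucose-6-phosphatase of gluconeogenesis, had -0.64 ± 0.34. Of 12 FOXA targets, 3 were lower and 1 higher at an unadjusted p under 0.05 and 0 passed edgeR's adjusted threshold, with a median of -0.61. The count and the median include Pck1, the gene deleted in KO. DESeq2 called 1 lower, which was Pck1, and limma voom with sample weights 3 lower, Pck1 among them, and 2 higher. Igfbp1, a secreted binder of insulin-like growth factors, was at 1390 to 9151 CPM in KO tumours and at 320 to 3724 CPM in WT tumours (1.57 ± 0.62). Cyp2b10, a target of the receptor CAR as well, had -3.30 ± 1.44.

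Of 10 NR5A2 targets, 9 were tested; 2 were lower and 0 higher at an unadjusted p under 0.05, and 0 passed edgeR's adjusted threshold, with a median log2 fold change of -0.43. DESeq2 called 0 and limma voom with sample weights 2 lower (Abcg5 and Gls2). Abcg5, of biliary sterol export, was at 91.3 to 216 CPM in KO tumours and at 56.4 to 504 CPM in WT tumours (-1.11 ± 0.47), and Gls2, the liver glutaminase, had -2.11 ± 1.02. Of 19 secreted plasma proteins, 2 were lower and 0 higher at an unadjusted p under 0.05 and 0 passed edgeR's adjusted threshold, with 15 negative values and a median of -0.21. DESeq2 called 1 lower (Serpinc1) and limma voom with sample weights 2. Serpinc1, antithrombin, was at 1148 to 1984 CPM in KO tumours and at 1965 to 2636 CPM in WT tumours (-0.57 ± 0.19), and Ttr, transthyretin, had -0.60 ± 0.28. Each of these medians is to be read beside 0.0336 for all genes tested, and each count beside the backgrounds given above for its tool.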

How the data were processed

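Total RNA was extracted from 12 liver tumours with Trizol, per the labels' protocols. The deposited table holds whole-number read counts per gene, without normalization. Alignment was with HISAT2 to mm10, per the submitters' processing notes. The counting program, its strand setting and its annotation were not given in the sources used here. By genotype label there were 7 KO and 5 WT libraries, numbered in accession order. KO replicate 7 is titled KP instead of KO, and its genotype label was followed. No label ties a library to its own animal. The p-values thus measure only spread among these samples, which may be technical in part and need not be spread between animals. None of 31 pairs of libraries within a genotype was a duplicate (chi-square per degree of freedom of at least 80.6).

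Genes were kept by filterByExpr (minimum count 10, minimum total 15), which left 14666 of 46095 genes, holding 99.89% of all counts. The test was edgeR 4.0.16 in R 4.3.3 (TMM scaling, robust quasi-likelihood F-test of KO against WT, Benjamini-Hochberg adjustment over all genes tested, threshold 0.05), and all adjusted p-values cover the whole table. The SE of an edgeR log2 fold change was derived from the test, as its absolute value over the square root of the F statistic. The common coefficient of biological variation came to 0.492. The fit was tested on simulated data. Single values were also compared by exact two-sided permutation over the libraries, and correlations by 100000 permutations. Alternatives were DESeq2 1.42.0, limma 3.58.1 voom with and without sample weights, other scalings, filters of 1 CPM in 5 libraries and none, a prior count of 0.5, depth and Xist classes (boundary 10 CPM), and libraries left out. Positions, lengths and overlaps came from GENCODE M21, and promoter windows from RefSeq GRCm38.p6.

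The 9 members and the other gene lists were chosen with earlier results of these data known. Genes outside the members were named by rule: Pck1 and Xist, up to 3 genes with the smallest edgeR p in each other list (and up to 2 of the highest level in lists of other cell types), and the 3 genes most correlated with each member. Of the genes this rule takes, the text names a part, and 1 is not reported here.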

Additional observations from a re-analysis of the deposited data

Results flagged for a closer look

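In 4 of 20 sets of values, each a factor or the C/EBP ratio within 1 genotype, the highest or lowest tumour lay farther from its nearest neighbour than Dixon's 95% critical value allows. Chance alone flags about 1 in 20 such sets. Hnf4a was low in WT replicate 4, at a log2 CPM of 8.88, while the other WT tumours lay close together. Onecut1 was low in WT replicate 1, at a log2 CPM of 0.69. Nr5a2 was low in KO replicate 6, at a log2 CPM of 4.86. The log2 ratio of Cebpb to Cebpa was low in KO replicate 5, at -2.34.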

How the results depend on the processing

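Hnf4a kept its direction and its side of the threshold in all 14 alternatives besides leaving out single libraries. Limma voom with sample weights called Cebpa (-0.73) and Foxa1 (0.65), so the count of members past the threshold was 2, and the other alternatives gave 0. It gave Foxa3 0.0112. Among the shallower libraries Cebpb was 0.21, Foxa2 0.25, Prox1 -0.0109 and the difference of the C/EBP ratio 1.29. Among the deeper ones Foxa3 was 0.0629, Onecut1 0.33 and the ratio difference -0.48. With Xist class as a covariate Prox1 was -0.0233 and Nr5a2 0.0658. Without the 3 KO libraries highest in neutrophil genes Foxa2 was 0.0734, Foxa3 0.0346 and Nr5a2 0.00863. The cause of these changes was not tested.

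Leaving out 1 library at a time gave -0.25 to -0.0601 for Hnf4a, -0.84 to -0.52 for Cebpa (edgeR adjusted p 0.132 to 0.428), -0.32 to -0.0101 for Cebpb, 0.45 to 0.74 for Foxa1 (edgeR adjusted p 0.142 to 0.505), -0.32 to -0.0412 for Foxa2, -0.24 to 0.0775 for Foxa3 (0.0108 without KO replicate 6), -0.93 to -0.0694 for Onecut1, 0.000339 to 0.38 for Prox1, -0.23 to 0.0289 for Nr5a2 and 0.37 to 0.83 for the C/EBP ratio. The count of members past the threshold stayed at 0 in each, and that at an unadjusted p under 0.05 was 1 to 2. Of 139 genes in the other lists, 0 passed in edgeR, 13 in DESeq2 and 24 in limma voom with sample weights. Over all genes tested these tools called 0 higher and 0 lower, 247 and 242, and 938 and 1200, limma voom without weights 1 and 4, and edgeR without KO replicate 6 called 14 and 51. At an unadjusted p under 0.05 edgeR had 1064 and 1091. With the longest coding transcript as the length, an alternative chosen after seeing the data, Prox1 exceeded Nr5a2 in 7 of 12 libraries. No paired analysis was possible because the replicate numbers follow accession order and the labels pair no tumours. A common coefficient of variation of 0.492 and 5 WT tumours limit the differences that can be detected.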

Other observations

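Correlations of the 9 members with the 28 other hepatocyte regulators, 252 pairs over the 12 libraries, were computed after other results had been seen. Of these, 35 had a Pearson permutation p under 0.05. After adjustment over the 252 pairs, 0 passed by Pearson's r and 5 by Spearman's rho, each of the 5 with an adjusted permutation p of 0.0312.

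Foxa3 was positively related to Xbp1, a factor of secretory capacity, with r = 0.84 and rho = 0.90, and r was 0.76 without KO replicate 6 and WT replicate 2. Foxa3 was negatively related to Esrra, a nuclear receptor of mitochondrial genes, with r = -0.82 and rho = -0.87, and r was -0.69 without the same libraries. Within the shallower and the deeper libraries r was 0.76 and 0.86 for Xbp1, and -0.79 and -0.78 for Esrra.

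Foxa1 was negatively related to Nr1i2, the xenobiotic receptor PXR, with r = -0.82 and rho = -0.87, and to Gata4, a zinc finger factor of endoderm, with r = -0.74 and rho = -0.86. Without KO replicate 5 and WT replicate 4, r was -0.87 for Nr1i2 and -0.86 for Gata4. In the shallower and the deeper libraries r was -0.77 and -0.97 for Nr1i2, and -0.67 and -0.87 for Gata4. Centred within genotype, r was -0.74 and -0.62.

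Onecut1 was negatively related to Tbx3, with r = -0.72 and rho = -0.87. Without KO replicates 1 and 2, the farthest in Onecut1, r was -0.80, and by depth it was -0.71 (shallower) and -0.93 (deeper). The Pearson adjusted permutation p was 0.0983 for the 4 relations of Foxa3 and Foxa1 and 0.267 for that of Onecut1 with Tbx3.

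Markers of other cells that are not described beside a factor were as follows. The 10 macrophage and Kupffer cell genes summed to 551 to 3479 CPM in KO tumours and to 944 to 1864 CPM in WT tumours. In edgeR 5 of their log2 fold changes were positive and 5 negative, with 1 gene lower at an unadjusted p under 0.05 (Clec4f, -2.47 ± 0.87). Marco had 2.02 ± 1.70 in edgeR and -2.28 ± 0.79 in DESeq2. The 10 stellate and matrix genes summed to 290 to 755 CPM in KO tumours and to 230 to 821 CPM in WT tumours. The 10 cell cycle genes summed to 160, 169 and 112 CPM in KO replicates 2, 3 and 4. In the other KO tumours the sum was 30.9 to 41.8 CPM, against 17.7 to 77.6 CPM in WT tumours. All 10 log2 fold changes were positive in edgeR, with 0 at an unadjusted p under 0.05. Limma voom with sample weights gave Rrm2 -0.39. None of these genes passed the adjusted threshold in edgeR or DESeq2, while limma voom with sample weights called 2 of the macrophage and 1 of the stellate genes lower.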
